A study of Mus musculus with 8 samples.

Results

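The Fc gamma receptors of tumor-infiltrating immune cells were followed through 7 genes, taken by symbol from the 32285 genes of the count matrices. Fcgr1, Fcgr3 and Fcgr4 encode the activating receptors for IgG, Fcgr2b the inhibitory receptor, Fcer1g the signaling chain that the activating receptors share, Fcgrt the heavy chain of the neonatal Fc receptor, and Fcrls a receptor-like relative. CD45+ cells had been sorted on day 18 from mammary tumors of 8 mice and profiled by droplet 3′ sequencing, with the cells of each mouse marked by a multiplexing tag. Parental E0771, a mouse mammary carcinoma line, grew in 2 mice (replicates 1 and 3), and E0771-Res1 and E0771-Res2 each grew in 3 mice. According to the study's methods, both resistant lines were established from E0771 tumors that had relapsed after paclitaxel and anti–PD-1 antibody, and tumor cells were placed in the inguinal mammary fat pad. Each resistant line is a single derivative, the labels give no age or treatment of the mice, and the third parental mouse that the design names was not analysed here.

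Fc gamma receptors bind the constant part of IgG and tie antibodies to phagocytosis, cytokine release and antigen uptake. The activating receptors signal through the tyrosine-based motif of the Fcer1g chain and the kinase Syk, whereas Fcgr2b carries an inhibitory motif of its own and recruits the phosphatase SHIP1, so that the balance of activating and inhibitory receptors on a cell sets its response to immune complexes. In tumors, macrophages are the main carriers of these receptors, and NK cells are known for Fcgr3.

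Fcgr2b (ENSMUSG00000026656, chr1:170958617-170976547, minus strand), Fcgr4 (ENSMUSG00000059089, chr1:171018920-171029761, plus strand) and Fcgr3 (ENSMUSG00000059498, chr1:171051174-171064935, minus strand) lie next to each other in GRCm38, with Fcer1g (ENSMUSG00000058715, chr1:171229572-171234365, minus strand) on the same chromosome. Fcgr1 (ENSMUSG00000015947, chr3:96282909-96293969, minus strand) and Fcrls (ENSMUSG00000015852, chr3:87250758-87263738, minus strand) are on chromosome 3, and Fcgrt (ENSMUSG00000003420, chr7:45092990-45103851, minus strand) is on chromosome 7. All 7 are protein coding. The 250 bases before the RefSeq start (GRCm38.p6) are given here for the 4 classical receptors, because the neighbors Fcgr4 and Fcgr2b were the members called between tumor lines, whereas Fcgr1 and Fcgr3 were not. Each is written 5′ to 3′ on the gene's strand and ends at the base before the start, and capitals mark TTCNNNGAA, the palindrome that STAT factors bind, and GAGGAA or its reverse complement TTCCTC, a core that PU.1 binds. Fcgr1 is chr3:96293970-96294219, Fcgr4 chr1:171018676-171018925, Fcgr3 chr1:171059395-171059644 from the downstream of a pair of annotated starts, and Fcgr2b chr1:170976072-170976321. The windows of Fcgr3 and Fcgr2b lie within the gene spans given above. The RefSeq starts used for these genes are downstream of the 5′ ends of those spans, and sequence before the 5′ ends was not examined.
Fcgr1: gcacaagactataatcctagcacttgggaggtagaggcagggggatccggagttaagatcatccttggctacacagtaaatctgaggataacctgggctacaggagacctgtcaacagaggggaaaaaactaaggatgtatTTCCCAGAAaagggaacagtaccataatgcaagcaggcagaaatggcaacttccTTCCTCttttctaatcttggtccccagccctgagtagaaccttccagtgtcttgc
Fcgr4: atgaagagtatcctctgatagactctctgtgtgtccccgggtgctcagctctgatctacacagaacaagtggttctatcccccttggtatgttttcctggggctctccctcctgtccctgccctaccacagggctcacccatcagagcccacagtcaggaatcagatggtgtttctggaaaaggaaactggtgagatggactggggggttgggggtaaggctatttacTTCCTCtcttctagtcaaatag
Fcgr3: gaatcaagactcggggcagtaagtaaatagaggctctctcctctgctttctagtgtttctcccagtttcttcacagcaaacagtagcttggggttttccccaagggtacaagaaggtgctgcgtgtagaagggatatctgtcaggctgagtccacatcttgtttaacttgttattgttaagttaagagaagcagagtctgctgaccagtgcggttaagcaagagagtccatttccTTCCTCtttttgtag
Fcgr2b: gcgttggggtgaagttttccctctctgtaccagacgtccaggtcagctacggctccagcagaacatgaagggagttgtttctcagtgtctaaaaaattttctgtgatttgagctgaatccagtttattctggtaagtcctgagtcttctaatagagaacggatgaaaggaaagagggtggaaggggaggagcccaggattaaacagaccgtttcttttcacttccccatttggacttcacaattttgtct

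On both strands, TTCNNNGAA was found in 2306 of 32851 promoters of this length (7.02%), GAGGAA in 7639 (23.3%) and both in 531 (1.62%). The motifs can share bases, and overlapping matches were not counted apart. Fcgr1 held both, with TTCCCAGAA 109 to 101 bases and TTCCTC 55 to 50 bases before the start. Fcgr4 held TTCCTC 22 to 17 bases before its start, Fcgr3 held it 15 to 10 bases before the start shown, and Fcrls held GAGGAA 144 to 139 bases before its start. In Fcgr2b, Fcer1g and Fcgrt these letters were not in this window. The motifs were chosen after the sequences were seen, and a match of letters is a description and not a site.

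Of 11430 deposited cells, 10605 were used, those with 500 to 6000 genes and less than 10% of their UMIs from mitochondrial genes, at a median of 5589 to 8160 unique molecular identifiers (UMIs) per cell in each mouse, and no barcode was shared between mice. Classes were set by UMIs of marker genes, none of them a member. Macrophages had at least 10 UMIs of C1qa (2334 cells, 100 to 578 per mouse). Monocytes had at least 3 UMIs of Ly6c2, Vcan and Chil3 together, with Csf1r, at least 10 UMIs of Lyz2 and at most 2 of C1qa (2569 cells, 200 to 459 per mouse). Dendritic cells (305) had at least 3 UMIs over Flt3, Zbtb46, Cd209a, Ccr7, Xcr1 and Clec9a and at least 5 of H2-Ab1, NK cells (219) had at least 2 UMIs of Ncr1, Klre1 and Klrb1c together, none of Cd3e and at most 1 of Cd3d, and T cells (554) had at least 2 UMIs of Cd3d and Cd3e. Cells that met several gates (503) were left out, and 3417 cells met none. Pooled over all mice, these ungated cells held 7128 CPM of Lyz2, 774 of Fcgr1 and 417 of Fcgr2b. Their median was 3979 UMIs, against 9372.5 for macrophages and 7648 for monocytes, so cells of low depth could miss the raw-UMI gates. The ungated cells numbered 436 for E0771, 925 for E0771-Res1 and 2056 for E0771-Res2, beside 309, 858 and 1167 macrophages. Apart from a setting with gates on scaled counts, their part in the line comparisons was not tested. Markers that the gates did not use were summed as well. The 7 macrophage markers summed to 14461 to 20714 CPM in macrophages against 1979 to 2712 in monocytes, 5 monocyte markers to 5738 to 8069 in monocytes against 732 to 1883 in macrophages, 6 dendritic cell markers to 31443 to 40772 in dendritic cells, and 6 NK markers to 13105 to 26300 in NK cells. A doublet caller marked 30 of 10605 cells (0.283%), which was taken as a failed call, so doublets within a class were kept. Levels are CPM, the UMIs of a gene per 1000000 UMIs of the 23649 genes left after mitochondrial, ribosomal and Gm genes were removed. One UMI marks 1 transcript end whatever the length of the transcript, so levels of different genes are not scaled by length. Other differences between genes in capture or mapping were not tested.

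**Figure D1:**
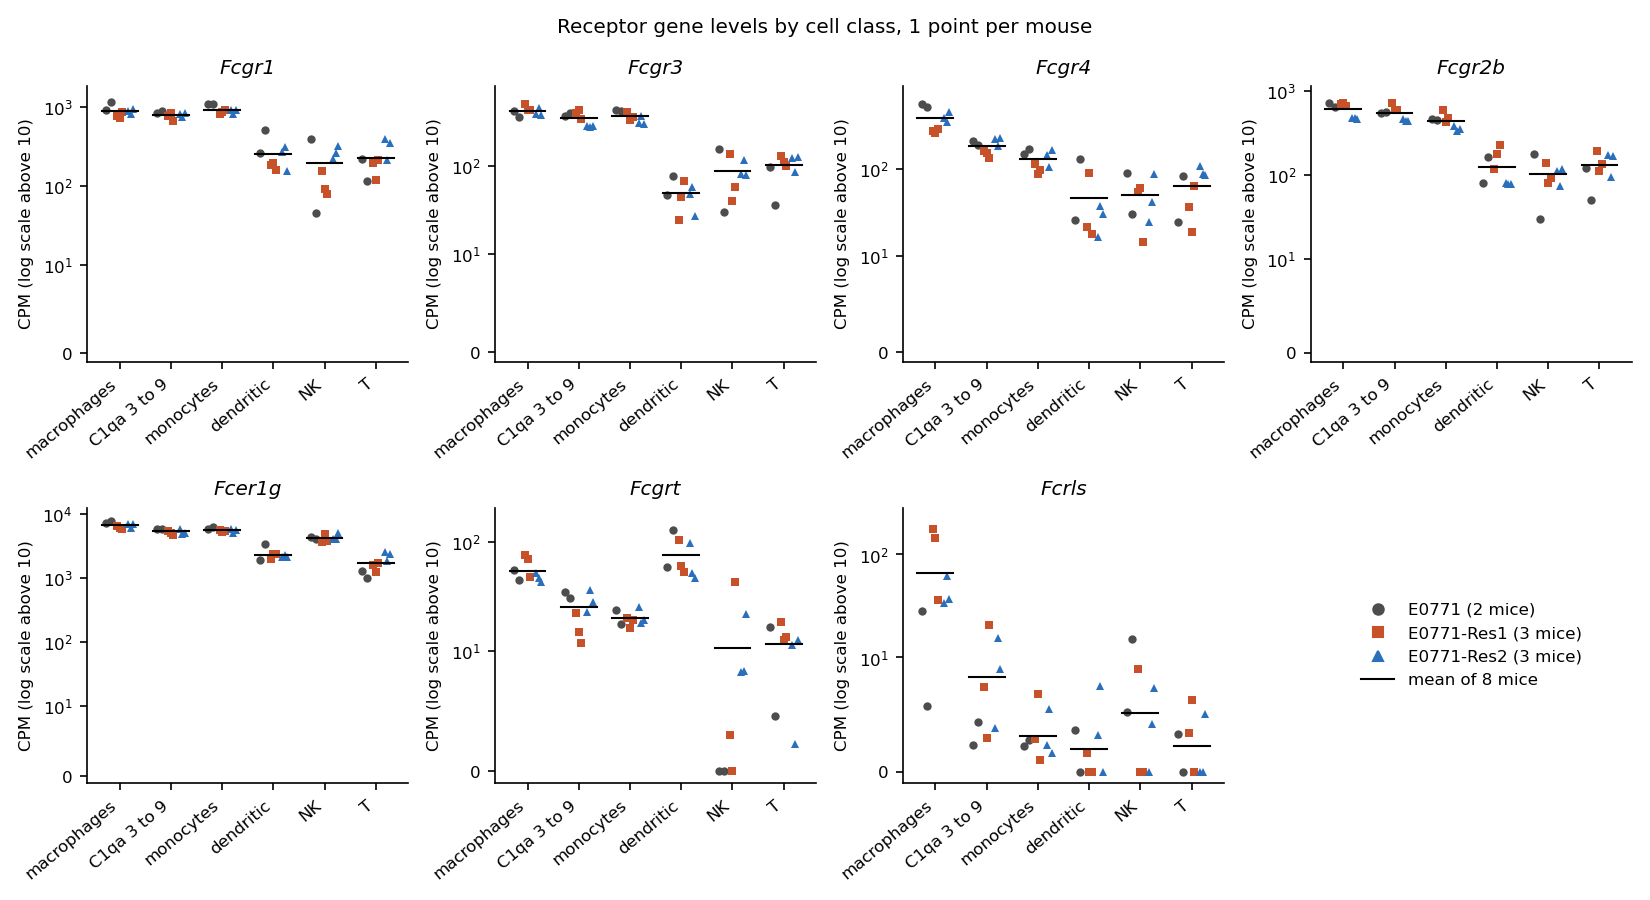
Level of each of the 7 genes (CPM, logarithmic above 10) in 6 cell classes, with 1 point per mouse colored by tumor line and a bar at the mean of the 8 mice. Fcgr1, Fcgr3, Fcgr4 and Fcgr2b are highest in macrophages, in the cells with 3 to 9 UMIs of C1qa and in monocytes, Fcer1g is also high in NK cells, Fcgrt is highest in dendritic cells and Fcrls in macrophages.

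Macrophages and monocytes both carried the classical receptors, and among these Fcgr4 differed most in level between the classes. Fcgr1, the high-affinity IgG receptor, was the most abundant receptor in both, at 870 ± 131 CPM in macrophages and 910 ± 111 in monocytes (SD, n = 8 mice, as for all class means). Fcgr3 stood at 427 ± 47.8 CPM in macrophages and 370 ± 49.8 in monocytes. Fcgr4, the activating receptor for IgG2a and IgG2b, stood at 385 ± 116 CPM in macrophages against 129 ± 32.2 in monocytes, and no macrophage sum was as low as any monocyte sum. The inhibitory Fcgr2b was at 612 ± 114 and 437 ± 83.4 CPM. Fcer1g exceeded every receptor that uses it, at 6777 ± 734 CPM in macrophages and 5690 ± 349 in monocytes.

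Between macrophages and monocytes of the same mouse, 5 of 7 members passed edgeR's quasi-likelihood test with Benjamini-Hochberg adjustment over 9372 genes, where 55.6% of all genes did. Fcgr4 was higher in macrophages by 1.39 on the log2 scale (SE 0.065, edgeR adjusted p = 1.13e-12). Fcgrt, the receptor that returns IgG from endosomes to the surface, was higher by 1.26 (SE 0.111, edgeR adjusted p = 1.09e-08) and Fcgr2b by 0.31 (SE 0.0529, edgeR adjusted p = 6.17e-05). Fcgr1 was lower in macrophages, with a log2 difference of -0.24 (SE 0.0483, edgeR adjusted p = 0.000308), a call lost on cells thinned to 2500 UMIs (-0.13, edgeR adjusted p = 0.0677). Fcgr3 (0.05) and Fcer1g (0.08) did not pass. Fcrls, known as a marker of microglia in the brain, had the steepest step of the members at 4.29 (SE 0.221, edgeR adjusted p = 4.37e-12), from 3.17 ± 1.97 CPM in monocytes to 65.5 ± 61.5 in macrophages. The 704 cells between the gates, with 3 to 9 UMIs of C1qa, lay between both classes for Fcgr4 (184 ± 33.0 CPM), Fcgr2b (549 ± 96.6), Fcgrt (25.3 ± 8.92) and Fcrls (8.26 ± 6.62), and below both for Fcgr1 (790 ± 64.2), Fcgr3 (351 ± 60.6) and Fcer1g (5422 ± 452).

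Dendritic cells differed from macrophages in all 7 members, with 43.2% of 8032 genes called in that comparison. Fcgr4 was lower by a log2 difference of -3.33 (SE 0.202, edgeR adjusted p = 4.85e-13), Fcgr3 by -3.12 (SE 0.163, edgeR adjusted p = 2.37e-14), Fcgr2b by -2.28 (SE 0.137, edgeR adjusted p = 3.56e-13) and Fcgr1 by -1.76 (SE 0.123, edgeR adjusted p = 7.13e-12). Fcer1g (-1.46) and Fcrls (-4.72) were lower too. Fcgrt alone was higher, by 0.55 (SE 0.157, edgeR adjusted p = 0.00635), at 75.7 ± 30.97 CPM against 54.7 ± 12.5, although single mice overlapped, with dendritic sums from 47.3 to 131 CPM resting on 4 to 63 UMIs. It was called under 14 of 16 settings, with a highest adjusted p of 0.189. Over all mice together, the 100 cells with Cd209a held 139 CPM of Fcgrt and 392 of Fcgr1, the 18 cells with Xcr1 or Clec9a 129 and 192, and the 172 mature cells with Ccr7 30.1 and 170. The mature cells were thus the lowest of the dendritic groups for both genes, as a description with 1 pooled value each.

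In lymphocytes the members parted into Fcer1g and the rest. NK cells, which use Fcer1g for CD16 and for natural cytotoxicity receptors, held 4490 and 4140 CPM of Fcer1g in the E0771 mice, 3737, 5008 and 3774 in E0771-Res1, and E0771-Res2 had 4146, 4048 and 5096. Every mouse was above its T cells, which ran from 1017 to 2540 CPM. The log2 difference was 1.44 (SE 0.129, edgeR adjusted p = 5.42e-08), and it was the only call among the 5 members tested, with 13% of 5648 genes called. Fcgr1 (-0.15), Fcgr2b (-0.27) and Fcgr4 (-0.17) did not pass. Fcgr3, which encodes the CD16 of NK cells, stood at 157 and 30.4 CPM in NK cells of E0771, 138, 40.1 and 57.7 in E0771-Res1, and E0771-Res2 had 82.8, 117 and 80.5, on 2 to 46 UMIs a mouse. T cells, which should lack it, held 103 ± 31.1 CPM of Fcgr3 against 87.9 ± 45.8 in NK cells (log2 difference -0.07, SE 0.201, edgeR adjusted p = 0.901). At this depth, Fcgr3 in all gated NK cells was not distinguishable from its level in T cells. Cells with at most 5 UMIs of the C1q genes and Lyz2 together were pooled over all mice. There, Fcgr3 was at 65.0 CPM in NK cells against 33.8 in T cells. Fcgr1 (36.5 against 80.2), Fcgr2b (41.2 against 55.8) and Fcgr4 (15.9 against 31.4) were lower in NK cells. These are 1 pooled value each, with no test.

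The shares of cells with a UMI set Fcer1g apart in the same way. For Fcgr3, the shares in all gated cells ran against the CPM. In the cells low in C1q genes and Lyz2, shares and pooled CPM ran the same way. The shares were not tested, and no order is read from them. With every cell thinned to 2500 UMIs, 208 of 209 NK cells had a UMI of Fcer1g (99.5%, exact 95% interval 97.4% to 99.99%) and 31 had Fcgr3 (14.8%, 10.3% to 20.4%), against 336 (65.0%) and 70 (13.5%) of 517 T cells. Among cells with at most 5 UMIs of the C1q genes and Lyz2 together, Fcer1g was in 107 of 108 NK cells (99.1%) and 127 of 235 T cells (54.0%), and Fcgr3 in 10 NK cells (9.26%, 4.53% to 16.4%) and 13 T cells (5.53%, 2.98% to 9.27%). The intervals cover counting error only. T cells held 17.0% to 25.7% of the myeloid level of the 4 receptors and Fcer1g, beside 3.66% of that of C1qa, 9.60% of that of Lyz2 and 11.9% of that of Apoe (4.15% to 32.9% over mice, which overlaps the receptors). C1qa and Lyz2 were gate genes, and a T cell with 10 or more UMIs of C1qa was left out. Their shares were thus set in part by the gates, and no order against the receptors is read from them. The part of free RNA and of doublets in the lymphocyte values was not tested. Before thinning, Fcgr3 was in 31.1% of NK cells and 27.6% of T cells (means over mice), at median depths of 7539 and 7128 UMIs.

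Across the tumor lines, the levels of the receptors were compared in macrophages, monocytes, dendritic cells and NK cells, with the 3 groups in 1 edgeR fit per class. P-values measure the spread between mice, and every parental value rests on 2 mice. Total UMIs per mouse ran from 5036667 to 18894504. E0771-Res1 replicate 3 stood apart from the other mice of its line in macrophage markers. Where a call of a member in macrophages differs without it, the value without it is given. That mouse was singled out on levels in these same data, and leaving it out leaves 2 mice in E0771-Res1. In macrophages of E0771-Res1 against E0771 this also raises all genes called from 7 to 269. Such values are a description, and the calls are those with all mice. All 7 members passed the low-count filter in macrophages and in monocytes, 6 in dendritic cells (without Fcrls) and 5 in NK cells (without Fcrls and Fcgrt).

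**Figure D2:**
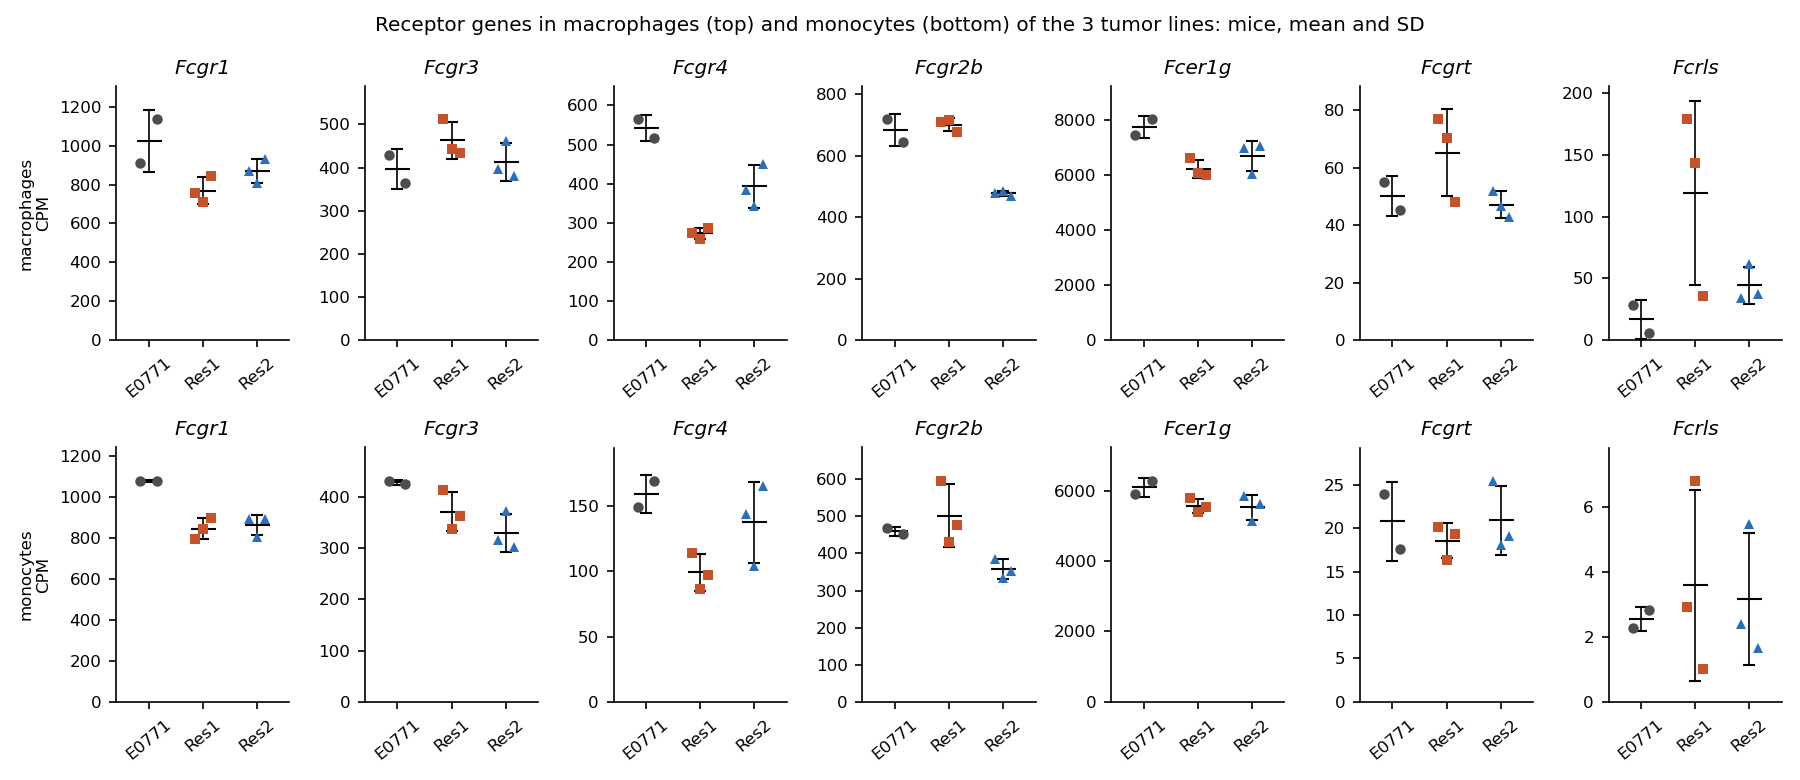
Level of each gene (CPM, own scale per panel) in macrophages (top) and monocytes (bottom) by tumor line, with points for mice and the mean ± SD of each line. In macrophages, Fcgr4 is highest in E0771 and lowest in E0771-Res1 without overlap, and Fcgr2b in E0771-Res2 lies below every other mouse.

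Among the activating receptors, Fcgr4 separated the lines in macrophages. It stood at 565 and 518 CPM in the E0771 mice, at 273, 259 and 287 in E0771-Res1, and E0771-Res2 had 384, 344 and 451. The 3 lines did not overlap, with E0771 highest and E0771-Res1 lowest. Against E0771, Fcgr4 fell in E0771-Res1 by a log2 change of -1.01 (SE 0.12, edgeR adjusted p = 0.00323) and was the only 1 of 7 members called, with 0.0768% of 9111 genes called. In E0771-Res2 the change was -0.48 (SE 0.118, edgeR adjusted p = 0.0505), which missed the threshold and passed it under 9 of 17 settings, among them the fit without E0771-Res1 replicate 3 (edgeR adjusted p = 0.0263). Between the resistant lines, Fcgr4 was higher in E0771-Res2 by 0.53 (SE 0.108, edgeR adjusted p = 0.0167), called under 15 of 17 settings and lost without E0771-Res2 replicate 1 (edgeR adjusted p = 0.0609) and replicate 3 (0.108). The fall in E0771-Res1 was called under 16 of 17 settings, from -1.13 to -0.95, and was lost without E0771 replicate 1 (edgeR adjusted p = 0.0694), which leaves 1 parental mouse.

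With all mice, Fcgr1 and Fcgr3 passed in no comparison of lines. Fcgr1 in macrophages was at 911 and 1136 CPM in E0771, 755, 708 and 843 in E0771-Res1, and E0771-Res2 had 867, 807 and 933, so that the E0771 mice overlapped E0771-Res2 but not E0771-Res1 (log2 change -0.43, edgeR adjusted p = 0.137). Without E0771-Res1 replicate 3 that change was -0.51 and passed (edgeR adjusted p = 0.0307). In E0771-Res2, Fcgr1 differed from E0771 by -0.25 (edgeR adjusted p = 0.34) and from E0771-Res1 by 0.18 (0.447). Fcgr3 was at 428 and 364 CPM in E0771, 512, 443 and 434 in E0771-Res1, and E0771-Res2 had 396, 462 and 379. The E0771 mice lay below those of E0771-Res1 without a call (log2 change 0.20, edgeR adjusted p = 0.529), and E0771-Res2 overlapped both (0.03 from E0771 and -0.17 from E0771-Res1, edgeR adjusted p = 0.958 and 0.43). Fcgr3 and Fcgr2b share 233 stretches of 31 bases, of 1627 and 3632 in their transcripts. Reads that lie wholly within shared sequence could not be told apart, and such reads were not counted. Of the stretches in the last 500 bases of transcripts, 76 of Fcgr2b occur in Fcgr3 and 5 of Fcgr3 occur in Fcgr2b. Their part in the levels of these 2 genes and in ratios that use them was not tested. No other pair of members shares one.

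The inhibitory receptor differed in the other resistant line. Fcgr2b in macrophages stood at 719 and 646 CPM in E0771, at 709, 715 and 677 in E0771-Res1, and E0771-Res2 had 478, 486 and 469. The mice of E0771-Res2 lay close together and below all others, whereas E0771 and E0771-Res1 overlapped. Fcgr2b fell in E0771-Res2 against E0771 by -0.54 on the log2 scale (SE 0.0886, edgeR adjusted p = 0.00646), and was the only 1 of 7 members called, with 2.06% of all genes called. Against E0771-Res1 the change was -0.55 (SE 0.0792, edgeR adjusted p = 0.00191), and 2 of 7 members, Fcgr2b and Fcgr4, were called beside 2.86% of all genes. Between E0771-Res1 and E0771 it was 0.01 (SE 0.0894, edgeR adjusted p = 0.992). The difference between the resistant lines was called under all 17 settings, from -0.56 to -0.46, and the difference from E0771 under 15, being lost without E0771 replicate 1 and with cells thinned to 2500 UMIs (edgeR adjusted p = 0.0896 for each). In the same macrophages, the 6 dendritic cell markers, which include the MHC class II genes Cd74 and H2-Eb1, summed to 15348 and 15070 CPM in E0771, 9516 to 17697 in E0771-Res1, and E0771-Res2 had 5778 to 5939. The part of these differences in the Fcgr2b result was not tested.

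With all mice, the signaling chain and the neonatal receptor did not pass between lines. Fcer1g in macrophages was at 7444 and 8025 CPM in E0771, at 6003 to 6597 in E0771-Res1, and E0771-Res2 had 6041 to 7055, and both parental mice were above all others (log2 changes -0.34 and -0.23, edgeR adjusted p = 0.131 and 0.238, and 0.11 between the resistant lines, 0.584). Fcgrt ran from 42.8 to 77.0 CPM over all macrophage sums, with log2 changes of 0.36 and -0.13 against E0771 (edgeR adjusted p = 0.485 and 0.811). The largest log2 difference of Fcgrt was that of E0771-Res2 from E0771-Res1, at -0.49 (SE 0.153, edgeR adjusted p = 0.115), and without E0771-Res1 replicate 3 it was -0.64 and passed (edgeR adjusted p = 0.0101).

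Fcrls was the most variable member in macrophages. It stood at 28.1 and 5.80 CPM in E0771, at 179, 143 and 35.8 in E0771-Res1, and E0771-Res2 had 33.9, 61.8 and 37.1, on 52 and 5, 1001, 148 and 55, and 129, 114 and 105 UMIs. Replicate 3 of E0771-Res1 lay within the range of E0771-Res2, and the other mice of its line were the highest of all. The log2 difference of E0771-Res1 from E0771 was 2.6 (SE 0.593, edgeR adjusted p = 0.0794), and without E0771-Res1 replicate 3 it was 2.98 (edgeR adjusted p = 0.000349). The difference of E0771-Res2 from E0771-Res1 was -1.55 (SE 0.399, edgeR adjusted p = 0.0547), and without that mouse -1.95 (edgeR adjusted p = 0.000363). E0771-Res2 differed from E0771 by 1.05 (SE 0.65, edgeR adjusted p = 0.488). The 5 monocyte markers in these macrophages summed to 1775 and 1883 CPM in E0771 and 1535 in E0771-Res1 replicate 3, against 787 and 873 in the other E0771-Res1 mice and 732 to 1123 in E0771-Res2. The 7 macrophage markers ran the other way, at 14461 to 15413 CPM in E0771 and E0771-Res1 replicate 3 and 19026 to 20714 in the rest. The part of these marker differences in the Fcrls levels was not tested.

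**Figure D3:**
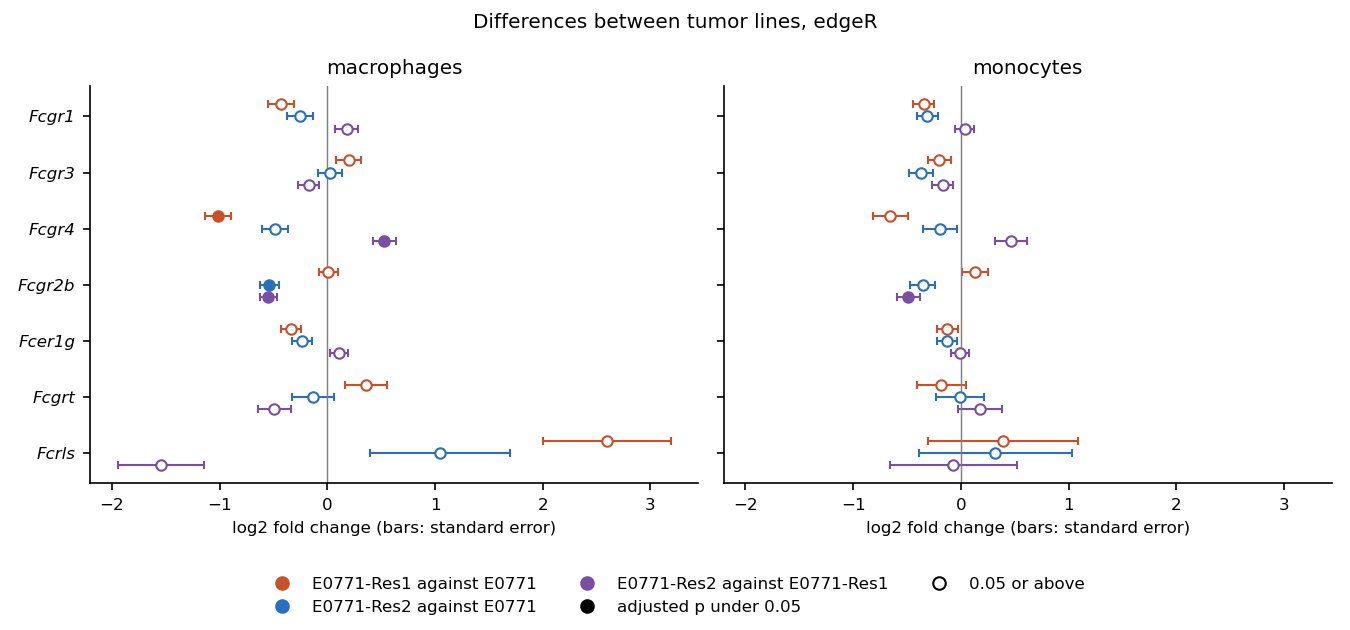
Log2 fold change of each gene (± SE) between lines in macrophages and monocytes, filled where the edgeR adjusted p was under 0.05. Fcgr4 is filled for E0771-Res1 against E0771 and for E0771-Res2 against E0771-Res1 in macrophages, and Fcgr2b for E0771-Res2 against E0771 in macrophages and against E0771-Res1 in both classes.

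In monocytes fewer comparisons of lines gave a call among the members. Against E0771, no member was called in E0771-Res1 (0.0462% of 8663 genes were called) or in E0771-Res2 (2.14%) by edgeR or by DESeq2, with 2 and 3 members at an unadjusted p under 0.05. Between the resistant lines, 1 of 7 was called, beside 2% of all genes. It was Fcgr2b, at 597, 431 and 477 CPM in E0771-Res1, and E0771-Res2 had 386, 334 and 353, lower in E0771-Res2 by -0.49 on the log2 scale (SE 0.106, edgeR adjusted p = 0.0239). The lines did not overlap, but the call was lost under 4 of 17 settings, without E0771-Res1 replicate 1 (edgeR adjusted p = 0.0798), without E0771-Res2 replicate 2 (0.0631) or replicate 3 (0.118) and on thinned cells (0.151). Fcgr4 in monocytes was at 149 and 170 CPM in E0771, at 114, 86.4 and 97.0 in E0771-Res1, and E0771-Res2 had 144, 104 and 165 (log2 changes -0.66 and -0.19, edgeR adjusted p = 0.177 and 0.64). Fcgr1 was at 1076 and 1080 CPM in E0771 and at 796 to 896 in the 6 mice of the resistant lines (log2 changes -0.35 and -0.31, edgeR adjusted p = 0.254 and 0.127), so the groups did not overlap although no test passed. Fcgr3 was at 432 and 426 CPM in E0771, above 337 to 413 in E0771-Res1, and E0771-Res2 ran from 303 to 372 (log2 changes -0.20 and -0.37, edgeR adjusted p = 0.603 and 0.0944). Fcer1g ran from 5147 to 6289 CPM, Fcgrt from 16.3 to 25.5 and Fcrls from 1.02 to 6.80 on 2 to 10 UMIs over the 8 mice. Their log2 changes in E0771-Res1 and E0771-Res2 against E0771 were -0.12 and -0.13 for Fcer1g, -0.18 and -0.01 for Fcgrt and 0.39 and 0.32 for Fcrls (edgeR adjusted p from 0.573 to 0.999). Whether a line difference differed between macrophages and monocytes was tested as an interaction, and no member passed by edgeR or DESeq2 (0.0107% and 0.0854% of 9372 genes were called for E0771-Res1 and E0771-Res2, with 4 and 2 members at an unadjusted p under 0.05). The smallest adjusted p of a member was that of Fcgr3 in both, with interaction terms of 0.39 (edgeR adjusted p = 0.309) and 0.39 (0.22).

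In dendritic cells, none of 6 members was called in any of the 3 comparisons of lines by edgeR or DESeq2 (0%, 0.086% and 0.0215% of 4649 genes), with 1, 0 and 1 at an unadjusted p under 0.05. Fcgr2b was at 80.8 and 164 CPM in E0771, 119, 180 and 228 in E0771-Res1, and E0771-Res2 had 81.7, 77.7 and 77.7, and the difference between the resistant lines was -1.10 (SE 0.311, edgeR adjusted p = 0.456). Fcgr1 was at 257 and 504 CPM in E0771, 157 to 195 in E0771-Res1, and E0771-Res2 ran from 155 to 306 (log2 changes -1.06 and -0.59, edgeR adjusted p = 0.633 and 0.674). Against E0771 in the same order, the log2 changes were -1.33 and -1.24 for Fcgr4, -0.50 and -0.40 for Fcgr3, -0.24 and -0.28 for Fcer1g and -0.14 and -0.43 for Fcgrt (edgeR adjusted p from 0.687 to 0.998). In NK cells, none of 5 members was called (0% of 3785 genes in each comparison) by edgeR or DESeq2, with 1, 0 and 1 at an unadjusted p under 0.05. There, Fcgr1 was at 388 and 45.7 CPM in E0771, 79.4 to 153 in E0771-Res1, and E0771-Res2 ran from 219 to 322, on 3 to 74 UMIs, and the resistant lines differed by 1.22 (SE 0.436, edgeR adjusted p = 0.521). The log2 changes against E0771 lay between -0.66 and 0.11 for Fcgr2b, Fcgr3, Fcgr4 and Fcer1g. These classes held 11 to 71 and 15 to 45 cells a mouse. Whether differences of the size seen in macrophages could be detected in them was not tested. T cells were not tested between lines.

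The activating receptors were then set against the inhibitory one, as the UMIs of Fcgr1, Fcgr3 and Fcgr4 together per UMI of Fcgr2b. In macrophages the ratio was 2.65 and 3.13 in E0771 (2.89 ± 0.337, SD), 2.17, 1.97 and 2.31 in E0771-Res1 (2.15 ± 0.17), and E0771-Res2 had 3.44, 3.32 and 3.76 (3.51 ± 0.226). The lines did not overlap, and the resistant lines lay on opposite sides of E0771. In monocytes it was 3.53 and 3.71 in E0771 (3.62 ± 0.123), 2.22, 2.94 and 2.84 in E0771-Res1 (2.67 ± 0.39), and E0771-Res2 had 3.51, 3.84 and 3.86 (3.73 ± 0.197), so there E0771-Res1 was below and the other lines overlapped. With Fcgr1 left out, Fcgr3 and Fcgr4 gave 1.38 and 1.37 per Fcgr2b UMI in macrophages of E0771, 0.981 to 1.11 in E0771-Res1, and E0771-Res2 had 1.63 to 1.77, which kept the order. This keeps Fcgr4, the activating receptor called between lines, and no ratio without Fcgr4 is given. The mean of E0771-Res1 was also the lowest in dendritic, NK and T cells. In the order E0771, E0771-Res1 and E0771-Res2, means were 4.23, 1.61 and 3.98 in dendritic cells. They were 3.53, 2.15 and 4.22 in NK cells and 3.70, 2.28 and 3.65 in T cells. Fcgr2b in NK cells rested on 2 to 47 UMIs a mouse. In T cells, single mice of E0771 (2.76 to 4.64) and E0771-Res1 (1.85 to 2.76) overlapped. The part of free RNA and of doublets in these ratios was not tested, and no trait shared over classes is read from them. On thinned NK cells E0771-Res1 was highest instead, at 4.36. The ratio is a score over members chosen with these data in view, and no test was made of it.

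**Figure D4:**
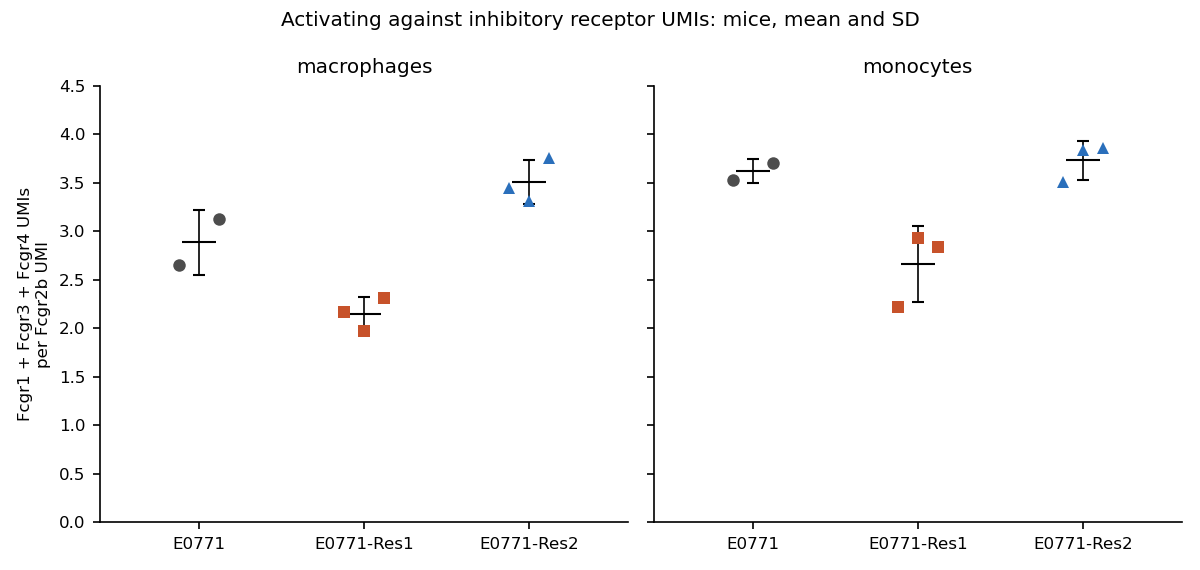
UMIs of Fcgr1, Fcgr3 and Fcgr4 per UMI of Fcgr2b in each mouse, by tumor line, in macrophages and monocytes, with the mean ± SD of each line. In macrophages the E0771-Res1 mice lie at 1.97 to 2.31 and the E0771-Res2 mice at 3.32 to 3.76, with E0771 between.

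Per cell, Fcgr2b was detected together with an activating receptor in most macrophages. With each cell thinned to 2500 UMIs (307, 851 and 1162 cells used, 2, 7 and 5 left out), Fcgr2b was in 69.7% ± 1.38 of macrophages in E0771, 68.4% ± 3.15 in E0771-Res1, and E0771-Res2 had 57.0% ± 0.972 (mean over mice, SD). Unthinned, these shares were 95.1%, 94.4% and 86.1%. Unthinned shares were not taken at equal depth. The median UMIs of macrophages were 10054 in E0771, 11013.5 in E0771-Res1 and 8261 in E0771-Res2. Cells with an activating receptor and no UMI of Fcgr2b made up 27.6% ± 0.433, 28.8% ± 3.02 and 39.9% ± 0.806, and cells with Fcgr2b alone 4.42%, 3.56% and 3.54%. Fcgr4 was in 55.0% ± 7.84 of macrophages in E0771, 37.0% ± 1.498 in E0771-Res1, and E0771-Res2 had 49.8% ± 3.50 (81.3%, 70.6% and 79.4% unthinned). T cells at the same depth had Fcgr2b in 15.8% and Fcgr4 in 9.56%, below every macrophage value. Fcer1g was in 99.9% or more of macrophages in each line, and Fcrls in 2.19%, 10.6% and 5.28%. No test was made of these shares.

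Macrophages were also divided by their UMIs of C1qa. The mean level of Fcgr4 over mice was highest in the cells with the most C1qa in each line. It went from 275 CPM at 10 to 19 UMIs of C1qa to 444 at 20 to 39 and 678 at 40 or more in E0771, from 226 to 228 and 302 in E0771-Res1, and E0771-Res2 had 298, 377 and 452. Single mice of E0771-Res1 did not all follow, since replicate 2 was at 187, 155 and 328 CPM and replicate 3 at 317, 260 and 288. In the cells with 10 to 19, the 3 lines overlapped. The mice of E0771 were at 233 to 317 CPM there, those of E0771-Res1 at 174 to 317 and those of E0771-Res2 at 224 to 348. At 20 to 39, E0771 (377 to 510) overlapped E0771-Res2 (357 to 415), and E0771-Res1 was below both (155 to 270). In the cells with 40 or more, the mice of E0771 were at 647 to 708 CPM, those of E0771-Res1 at 288 to 328 and those of E0771-Res2 at 411 to 516, without overlap. The means of Fcgr2b were not highest there, at 629, 710 and 691 CPM in E0771, 643, 832 and 662 in E0771-Res1, and E0771-Res2, at 475, 501 and 463, had the lowest mean in each bin. Fcrls was concentrated in the cells with 40 or more, at 26.6, 172 and 79.7 CPM in the 3 lines against 0, 27.4 and 11.3 in those with 10 to 19. The bins are set on raw UMIs and did not hold the level of C1qa equal between lines. In E0771, E0771-Res1 and E0771-Res2, mean C1qa was 2091, 2092 and 2641 CPM at 10 to 19 UMIs. At 20 to 39 it was 4018, 3572 and 4276 CPM. The smallest bin held 22 cells of a mouse, and these bins are a description with no test.

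**Figure D5:**
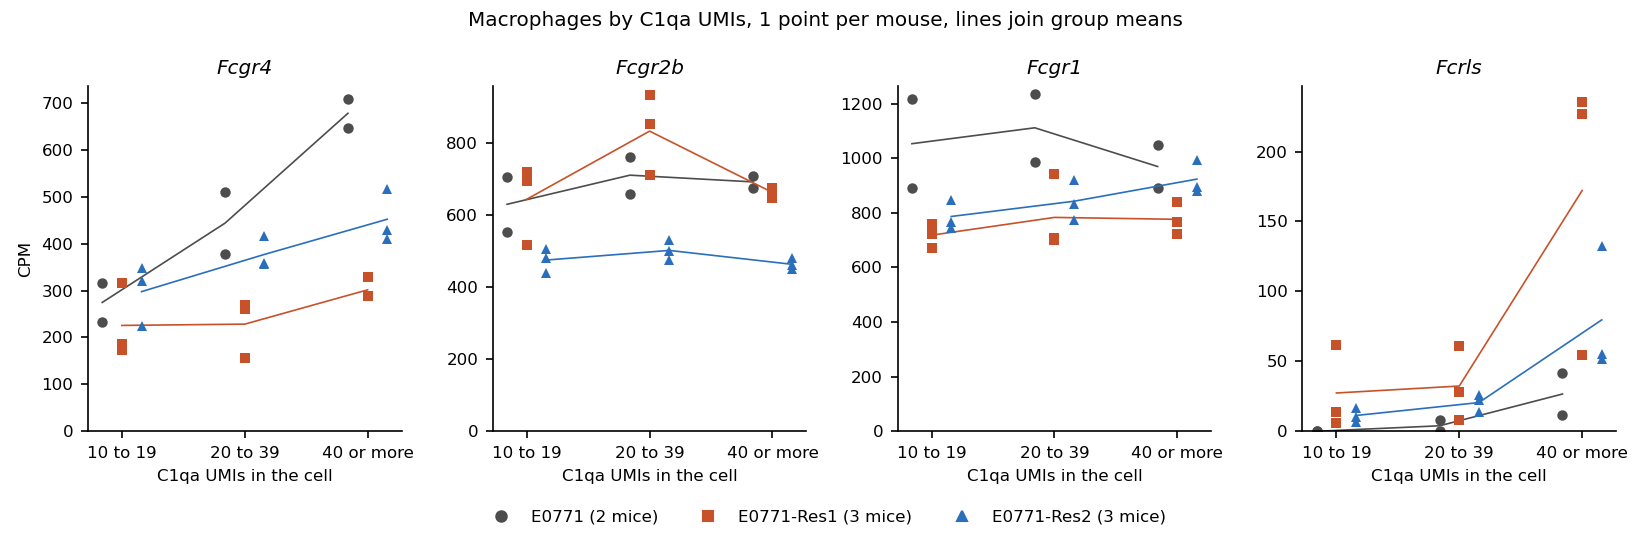
Level (CPM) of Fcgr4, Fcgr2b, Fcgr1 and Fcrls in macrophages divided by UMIs of C1qa (10 to 19, 20 to 39, 40 or more), with points for mice and lines joining the means of each tumor line. The line means of Fcgr4 and Fcrls are highest at 40 or more, with E0771-Res1 flat for Fcgr4 over the lower bins (226 and 228 CPM), those of Fcgr2b are not, and E0771-Res2 is lowest for Fcgr2b in each bin.

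Trem2, a lipid receptor of tumor macrophages, was used as a further split of the same cells. After thinning to 2500 UMIs, 926 macrophages had a UMI of Trem2 and 1394 had none, and the 2 sums of each mouse were compared. Of 7 members 2 were called, both higher with Trem2, where 3.65% of 5532 genes were called. Fcgr3 was higher by 0.42 on the log2 scale (SE 0.0848, edgeR adjusted p = 0.000207), in all 15 settings that gave a value, and Fcrls by 1.22 (SE 0.19, edgeR adjusted p = 2.77e-07). Fcgr2b (-0.19, edgeR adjusted p = 0.201) and Fcgr4 (-0.18, edgeR adjusted p = 0.34) did not pass, nor did Fcgr1 (0.04), Fcer1g (-0.11) and Fcgrt (0.11).

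The wider Fc receptor pathway was read through a list of 39 genes, of which 27 could be tested in macrophages. In macrophages of E0771-Res1 against E0771, 0 of 27 were called by edgeR, with a median log2 change of -0.23 beside 0.00 over all genes. In E0771-Res2 against E0771, 0 rose and 3 fell, with a median of -0.08 beside 0.01, where 2.06% of all genes were called. These were Irf1, a transcription factor induced by interferon gamma (-0.89, SE 0.159, edgeR adjusted p = 0.0109), Fgr, a Src family kinase that acts below Fc receptors (-0.62, SE 0.115, edgeR adjusted p = 0.0122), and Ighm, the heavy chain of IgM (-0.91, SE 0.217, edgeR adjusted p = 0.0459). In E0771-Res1, Irf1 had a log2 difference of -0.90 that did not pass (SE 0.163, edgeR adjusted p = 0.0505). The calls held under 14 of 17 settings for Irf1 (-1.02 to -0.81), 13 for Fgr (-0.71 to -0.45) and 11 for Ighm (-1.28 to -0.42). Fgr and Ighm were lost on cells thinned to 2500 UMIs (edgeR adjusted p = 0.333 and 0.614). Ighm was also lost with gates on scaled counts (edgeR adjusted p = 0.0526) and with the replicate block (0.0606). Irf1 was lost without E0771 replicates 1 and 3 and E0771-Res2 replicate 1 (edgeR adjusted p = 0.116, 0.0954 and 0.0583), Fgr without E0771 replicates 1 and 3 and E0771-Res2 replicate 3 (0.0561, 0.164 and 0.0666), and Ighm without E0771 replicate 3 and E0771-Res2 replicates 2 and 3 (0.406, 0.119 and 0.15). Between the resistant lines, Fcrl5, an Fc receptor-like gene (1.33, SE 0.234, edgeR adjusted p = 0.00644), and Cblb, a ubiquitin ligase that restrains signaling (0.69, SE 0.169, edgeR adjusted p = 0.0427), were higher in E0771-Res2 (2 of 27, beside 2.86% of all genes). Fcrl5 was called under all 17 settings and Cblb under 8. Cblb was lost without any of 5 mice, replicates 1 and 2 of E0771-Res1 and replicates 1, 2 and 3 of E0771-Res2 (edgeR adjusted p = 0.166, 0.082, 0.172, 0.0709 and 0.182). By edgeR it was also lost on thinned cells (adjusted p = 0.152), with C1qa of 20 or more (0.0915) and without the highest doublet scores (0.0595). DESeq2 did not call it either (adjusted p = 0.215). In dendritic cells 0 of 23 and in NK cells 0 of 19 were called by edgeR in the comparisons of lines.

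Between classes, the share of the list called is given beside that of all genes. From monocytes to macrophages 5 of 27 genes were higher and 12 lower (median -0.13 beside 0.02 over all genes), where 55.6% of all genes were called. Fcrl5 was higher by 3.81, and Fgr (-0.94), the lipid kinase subunit Pik3cd (-0.79), the phospholipase Plcg2 (-0.77), Irf1 (-0.72) and the adaptor Tyrobp (-0.54) were lower. From macrophages to dendritic cells 5 of 27 were higher and 15 lower (median -0.45, with 43.2% of all genes called). The adaptors Lcp2 (-1.63) and Lat2 (-1.12) were among the lower, and larger changes were called as well. Over 16 alternative settings, the difference of Fcrl5 ran from -2.68 to -1.96 and that of Cblb, among the higher, from 1.49 to 1.98. NK cells exceeded T cells in Tyrobp (1.75), Plcg2 (1.32), Lat2 (1.12) and Ifngr1 (0.60), with 4 of 22 higher and 3 lower beside 13% of all genes called. With Trem2, Lyn, a kinase of the Src family (-0.27), and the phosphatase Ptpn6 (-0.28) were lower and no gene of 24 was higher, where 3.65% of all genes were called. Lyn was called under 5 of 15 settings and Ptpn6 under 10. Both were lost by DESeq2 (adjusted p = 0.178 and 0.188) and in several fits without 1 mouse (edgeR adjusted p up to 0.173 and 0.16). Lyn was also lost with gates on scaled counts (edgeR adjusted p = 0.0682), without the highest doublet scores (0.0675) and with RLE size factors (0.0592).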

How the data were processed

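CD45+ cells of 8 tumors were profiled with the 3′ v3.1 droplet kit and multiplexing oligonucleotides. The authors counted UMIs with Cell Ranger (6.1.2 per the file headers, build mm10 per the labels) and deposited 1 unnormalized matrix of gene by cell counts per mouse. Here, cells were filtered as the study's methods state, mt-, Rpl, Rps and Gm genes (20.4% of UMIs) and 9 tag features were left out, and counts were summed per mouse and class, for sums of at least 10 cells. Replicates differed beyond counting noise (chi-square per degree of freedom 2.18 to 5.50), so all were kept. Sums were tested in edgeR 4.0.16 (limma 3.58.1, R 4.3.3) with TMM, filterByExpr and the quasi-likelihood test, adjusted by Benjamini-Hochberg over all genes tested at 0.05. Lines shared 1 fit per class without a block. Classes, the Trem2 split and the interaction had the mouse as a block. DESeq2 1.42.0 and other settings were alternatives, and Scrublet ran in scanpy 1.11.5 (Python 3.11.15, scipy 1.17.1) at an expected rate of 0.06. On simulated counts for E0771-Res2 against E0771 in macrophages (9111 genes), 65.6% of log2 changes of 1 and 87.8% of those of 1.5 were recovered. Depth, at 5036667 to 18894504 UMIs per mouse, sets the precision of low genes such as Fcrls.

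The rule for named genes took all 7 members, where tested, and of the pathway list at most the 6 genes with the largest change among those called. The interactions and some comparisons of the resistant lines give the leading members only. The members and lists were chosen with earlier results of these data known. Levels over classes were correlated over 48 mouse and class sums. Some genes of the pathway list and 1 correlated gene are not reported here.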

Additional observations from a re-analysis of the deposited data

Results flagged for a closer look

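The effect of E0771-Res2 against E0771 on Fgr, the Src family kinase of the pathway list, differed between macrophages and monocytes by the interaction term, with a macrophage minus monocyte difference of -0.71 on the log2 scale (SE 0.133, edgeR adjusted p = 0.0477). The log2 change was -0.62 in macrophages and 0.07 in monocytes. The interaction was called under 8 of 16 settings, from -0.79 to -0.59. It was lost without E0771 replicate 1 (-0.79) and replicate 3 (-0.65), each of which leaves 1 parental mouse. Fits without E0771-Res2 replicates 1, 2 and 3 lost it too (edgeR adjusted p = 0.0759, 0.0592 and 0.198). So did thinned cells (edgeR adjusted p = 0.464), RLE size factors (edgeR adjusted p = 0.0612) and DESeq2 (adjusted p = 0.079).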

How the results depend on the processing

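No called value of a member turned its direction in any setting, and of the member values under alternatives 1826 stayed on their side of the threshold, 36 passed it newly and 12 lost it. For macrophages of E0771-Res1 against E0771, 1 member was called, against 2 on cells thinned to 2500 UMIs, 4 without the low-count filter and 0 to 3 when leaving out each mouse. For E0771-Res2 against E0771 it was 1, against 2 with all deposited cells, with gates on scaled counts, with C1qa of 20 or more, with RLE size factors and with DESeq2, 0 on thinned cells, 3 without the filter and 0 to 2 when leaving out each mouse. Between the resistant lines it was 2, against 4 without the filter and 1 to 4 when leaving out each mouse. For monocytes in the same order, 0, 0 and 1 members became 1, 2 and 2 without the filter. Leaving out each mouse gave 0 to 1 in both comparisons of E0771-Res2, and thinned cells gave 0 between the resistant lines. In dendritic cells and NK cells, 1 member was called between the resistant lines without the filter, against 0. Without the filter the prior degrees of freedom were infinite (Inf, against 9.07 in macrophages and 11.4 in monocytes), so each gene's own spread was not used there. The activating to inhibitory ratio in monocytes moved from 3.62 to 3.79 in E0771 without the highest 5% of doublet scores and from 3.73 to 3.53 in E0771-Res2 on thinned cells. The cause of these changes was not tested.

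Replicate numbers were not used to pair mice in the main fits. In macrophages, deviations from group means correlated at -0.048 to 0.048 between same-numbered mice. With so few mice per group, these values cannot show that same-numbered mice shared no effect. A fit with the replicate block called 2 members in macrophages of E0771-Res1 against E0771 and 2 in monocytes between the resistant lines. The block raised all genes called from 7 to 51 and from 173 to 281 there, from 4 to 32 and from 185 to 284 in monocytes of E0771-Res1 and E0771-Res2 against E0771, from 4 to 20 and from 1 to 14 in dendritic cells of E0771-Res2 against E0771 and E0771-Res1, and from 0 to 1 in NK cells of E0771-Res1 against E0771 and of E0771-Res2 against E0771-Res1.

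The count of all genes called moved by more than 1.5 times in several settings. In macrophages of E0771-Res1 against E0771 it was 7, against 269 without E0771-Res1 replicate 3, 1 without E0771 replicate 1, 79 with DESeq2, 38 with scaled gates, 13 to 19 in the other settings of cells and gates and 378 without the filter. In E0771-Res2 against E0771 it was 188, against 108 thinned, 546 without the filter and 28 to 372 when leaving out each mouse, and between the resistant lines 261, against 148 thinned, 609 without the filter and 102 to 104 without E0771-Res2 replicates 3 and 1. In monocytes 4, 185 and 173 genes became 140, 432 and 443 without the filter. With DESeq2 it was 15 for E0771-Res1 and 113 for E0771-Res2 against E0771. In E0771-Res1 against E0771 it was 17, 10 and 20 without E0771-Res1 replicates 1, 2 and 3. In E0771-Res2 against E0771 it was 98 and 37 without E0771-Res2 replicates 1 and 3. Between the resistant lines it was 113 and 110 without E0771-Res1 replicates 2 and 3. Without E0771-Res2 replicates 1 and 3 it was 114 and 39. For monocytes, only left-out fits that moved the count by more than 1.5 times and kept more than 1 mouse per group are given. In dendritic cells 0, 4 and 1 became 13, 54 and 41 without the filter, and in NK cells 0, 0 and 0 became 11, 19 and 92. Thinning lowered the calls between classes from 5210 to 2934 (macrophages against monocytes), 3470 to 1670 (dendritic cells against macrophages) and 735 to 313 (NK against T cells), with fewer genes tested. DESeq2 called 106 against 202 for the Trem2 split, which has no further thinned value. The interactions went from 1 and 8 genes to 0 to 14 and 1 to 32 when leaving out each mouse, and to 71 and 116 without the filter.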

Other observations

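Over the 48 sums of 8 mice and 6 classes, the levels (log2 CPM) of the members resembled those of other genes. These correlations share libraries and gates and are a description. The genes most like Fcgr1 were Ms4a6d (Pearson r = 0.973), Lst1 (0.95) and Mpeg1 (0.949), and those most like Fcgr2b were Tgfbi (0.971), Ctsc (0.946) and Clec4a2 (0.945). Fcgr3 ran with C5ar1 (0.947) and Cndp2 (0.942), and Fcgr4 with Ms4a7 (0.893), Itm2b (0.891) and Apoe (0.891). For Fcer1g the nearest were Pik3ap1 (0.922), the adaptor Tyrobp (0.896) and Rnf130 (0.895). Fcgrt was nearest to Wdfy4 (0.891), a gene of cross-presenting dendritic cells, then to Bcl2a1a (0.833) and Ifi30 (0.832). Among the members, Fcgr3 and Fcgr2b were the closest pair (0.932), and Fcgrt correlated with the others at 0.236 to 0.453. Fcrls had too few UMIs over these sums.

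Over all mice together, Fcer1g in T cells with Cd8a or Cd8b1 was at 1099 CPM, in those with Cd4 or Foxp3 at 1734 and in those with neither at 3570, where Lyz2 was at 984, 1900 and 3876 CPM. These are 1 pooled value each, and the part of myeloid RNA in them was not tested.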
